A study of Mus musculus with 8 samples.

Results

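The genes examined here are 9 of the 55367 genes listed in the deposited table: *Pcx*, *Pck1*, *Pck2*, *Fbp1*, *G6pc*, *Slc37a4*, *Slc38a3*, *Glud1*, and *Foxo1*. They were chosen by name for their roles in renal gluconeogenesis and ammoniagenesis, and all 9 passed the filter on low counts. Gluconeogenesis is the synthesis of glucose from lactate, glycerol, and amino acids, and in the kidney it takes place in the proximal tubules. Ammoniagenesis in the same cells takes nitrogen from glutamine to make ammonium, which carries acid into the urine, and leaves a carbon skeleton that can be made into glucose. Both pathways meet at phosphoenolpyruvate carboxykinase (PEPCK), and in the liver the transcription factor FOXO1 is known to promote the PEPCK and glucose-6-phosphatase genes when insulin is low.

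Whole-kidney RNA-Seq covered 4 c-MafΔTAM mice, labeled Maf conditional KO, and 4 c-Maf fl/fl mice, labeled Maf flox/flox and called controls below. All were C57BL/6J mice aged 8 weeks with floxed *c-Maf*, a large Maf transcription factor gene. The c-MafΔTAM mice also carried CAG-Cre-ER TM, a tamoxifen-inducible Cre recombinase driven by a ubiquitous promoter, so deletion was not limited to the kidney, and the controls carried no Cre. Per the study's methods, tamoxifen (TAM) was given at 75 mg/kg on 5 consecutive days, and the controls received TAM as well. The comparison was tied to 10 days after TAM. The labels do not say whether littermates were used, so P values measure the spread between these 8 mice.

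Counts totaled 16649129 to 22990257 per mouse. With edgeR's quasi-likelihood test 20149 genes were tested, and a gene was called at an adjusted P (Benjamini-Hochberg) under 0.05. Levels are TMM-normalized CPM, which are counts divided by the scaled library size, and log2 fold changes are c-MafΔTAM with controls as the reference. The targeted gene, *Maf*, was at 9.06, 34.5, 29.6, and 10.1 CPM in c-MafΔTAM mice 1 to 4 and at 305 to 379.9 CPM in controls. *Xist*, which female cells express, was at 22 counts or fewer in c-MafΔTAM mouse 1 and controls 3 and 4, against 17618 or more in the other 5, and the sexes are not stated. Mitochondrial genes took 17.1% to 32.3% of the counts, most in c-MafΔTAM mouse 1. The proximal tubule markers *Lrp2*, *Cubn*, and *Miox* were abundant in every library, whereas the hepatocyte marker *Ahsg* had 0 counts in all 8 mice and *Alb* was at most 8.85 CPM. Adipocyte markers stood apart in 2 libraries, control mouse 3 with a sum of 148 CPM over 7 markers and c-MafΔTAM mouse 4 with 27.1 CPM, against at most 2.85 CPM in the other 6. Where leaving out these 2 mice ended the call of one of the 9 genes or of a further pathway gene, or moved the log2 fold change of one of the 9 by more than 1.5 times, the value without them is given beside it.

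All 9 genes had a negative log2 fold change, with a median of -0.27, beside 0.0027 over all genes tested. One called gene was among them, *Pcx*, the gene of the enzyme that carboxylates pyruvate at the entry to gluconeogenesis, which was lower in c-MafΔTAM mice at 0.625 times the control level. That is 1 of 9 genes called lower and 0 called higher, where 1.58% of all genes tested were called lower, 0.586% were called higher, and 2.16% in either direction. In 3 of the 9 genes, *Pcx*, *Pck1*, and *Slc37a4*, all 4 c-MafΔTAM mice lay below all 4 controls, which held for 5.62% of all genes tested, beside 4.17% for the opposite order and 9.79% for either. *Pck1* and *Slc37a4* had an adjusted P just above the threshold, and the other 6 genes overlapped between genotypes. The median of 9 genes that were chosen together is a description and carries no test.

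**Figure D1:**
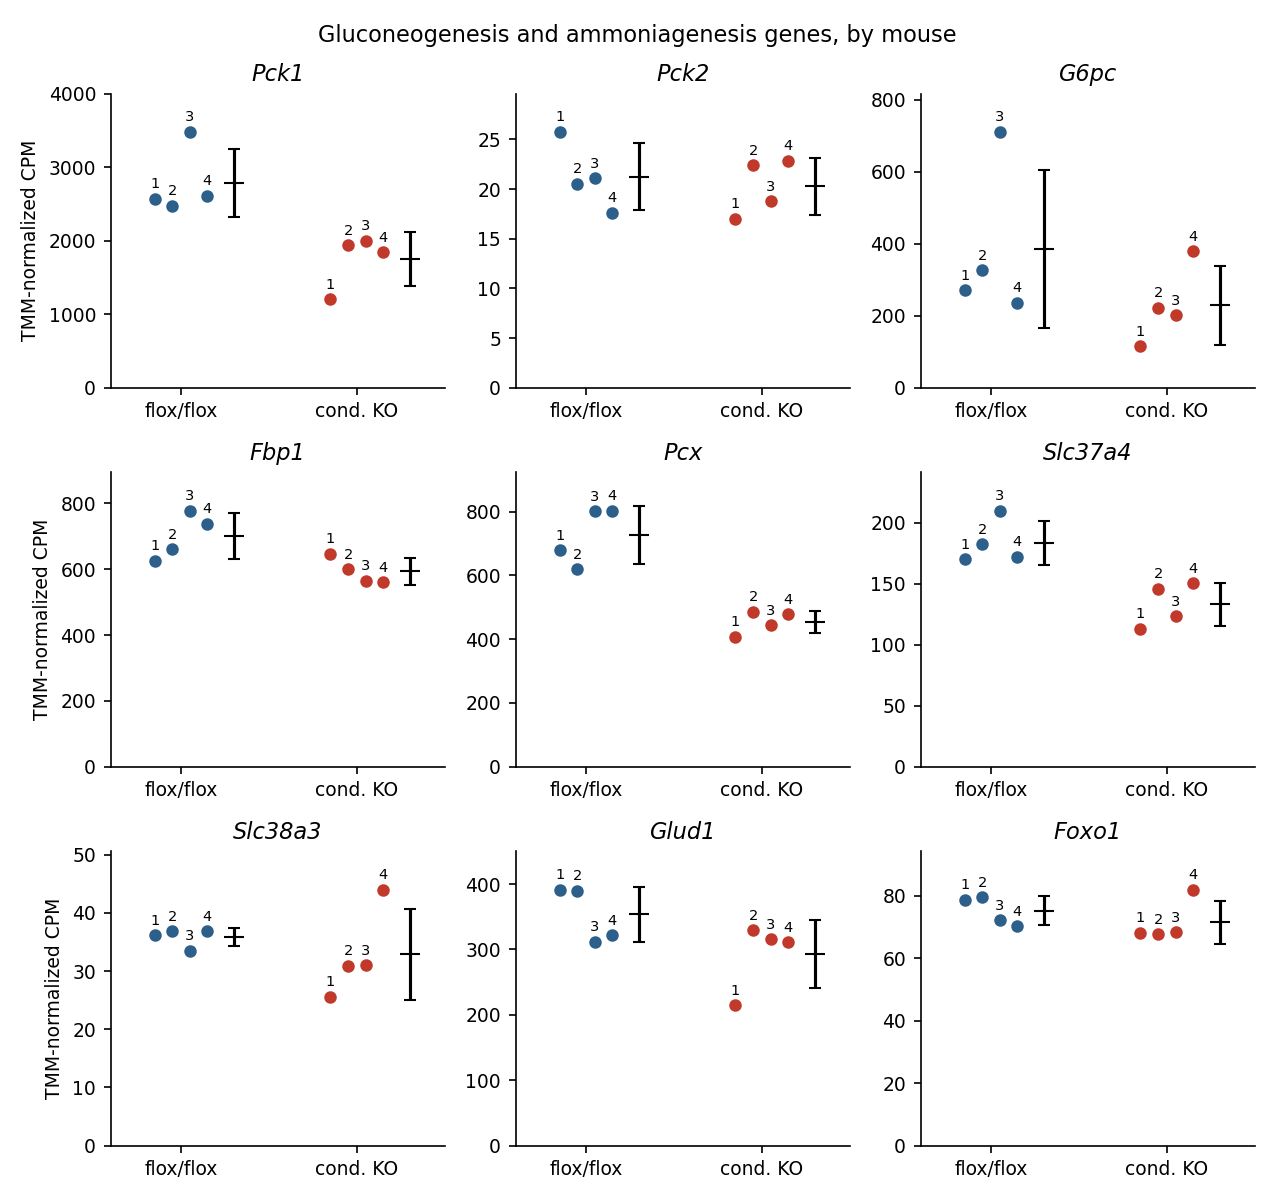
TMM-normalized CPM of each of the 9 genes in each mouse, with controls in blue and c-MafΔTAM mice in red. Small digits are mouse numbers, and the black mark and bar give the mean and SD of 4 mice. The genotypes are separated in *Pck1*, *Pcx*, and *Slc37a4* and overlap in the other 6 panels.

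*Pcx* encodes pyruvate carboxylase, a mitochondrial enzyme that makes oxaloacetate from pyruvate. The gene occupies 4510472 to 4621752 of chromosome 19 of GRCm38 (plus strand), and none of its exonic bases overlap another gene. It measured 408, 486, 443, and 478 CPM in c-MafΔTAM mice 1 to 4, against 679.8, 619.6, 801, and 803 CPM in controls 1 to 4. The highest c-MafΔTAM mouse was thus below the lowest control, and the controls with low *Xist*, mice 3 and 4, were above the other 2 controls. The mean fell from 726 ± 91.0 to 454 ± 35.6 CPM (SD, n = 4 in both groups). Its log2 fold change was -0.68 (SE 0.109, 95% confidence interval -0.92 to -0.44), and edgeR's quasi-likelihood test gave an adjusted P of 0.00656. It stayed past the threshold when any 1 mouse was left out, with values from -0.75 to -0.62. In the 5 high-*Xist* mice, where controls 3 and 4 do not enter, it was -0.47 (adjusted P = 0.00469 from the same test). Without the 2 mice high in adipocyte markers, an alternative chosen after the data had been seen, it was -0.65 and the call was lost at an adjusted P of 0.051.

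*Pck1* encodes cytosolic PEPCK, which turns oxaloacetate into phosphoenolpyruvate and is the form most studied in kidney cortex and liver. It occupies 173153048 to 173159273 of chromosome 2 (plus strand). It measured 1206, 1938, 1996, and 1841 CPM in c-MafΔTAM mice 1 to 4, against 2571, 2472, 3478, and 2608 CPM in controls 1 to 4. Every c-MafΔTAM mouse was below every control, with c-MafΔTAM mouse 1 lowest and control mouse 3 highest. The mean was 2783 ± 467 CPM in controls and 1745 ± 365 CPM in c-MafΔTAM mice (SD, n = 4 in both), and the log2 fold change was -0.67 (SE 0.167, 95% confidence interval -1.04 to -0.31). Its size was close to that of *Pcx*, but with the wider spread between mice the adjusted P was 0.068 in edgeR's quasi-likelihood test. *Pck1* passed the threshold with DESeq2 (adjusted P = 0.00584) and with edgeR's exact test (adjusted P = 0.0405). It did not pass with quantile normalization and limma-trend, which gave a smaller change of -0.43 (adjusted P = 0.363), or in the quasi-likelihood test with genes of at least 1 count (adjusted P = 0.258). With any 1 mouse left out it was between -0.74 and -0.53 and past the threshold in 0 of 8 fits. In the 5 high-*Xist* mice, it was smaller at -0.39 but past the threshold (adjusted P = 0.0217 in the quasi-likelihood test).

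*Pck2* encodes the mitochondrial form of PEPCK and occupies 55540266 to 55551242 of chromosome 14 (plus strand). It measured 16.99, 22.4, 18.8, and 22.8 CPM in c-MafΔTAM mice 1 to 4, against 25.8, 20.5, 21.1, and 17.6 CPM in controls 1 to 4. The genotypes overlapped widely, and the log2 fold change was -0.07 (SE 0.136, adjusted P = 0.871 in the quasi-likelihood test). Its 95% confidence interval ran from -0.37 to 0.23. The estimate for *Pck1* lay outside it, but the interval of *Pck1*, -1.04 to -0.31, overlapped it. The sign turned without c-MafΔTAM mouse 1 (0.01) or control mouse 1 (0.035), and upper-quartile factors gave -0.03. Without the 2 mice high in adipocyte markers it was -0.14 (adjusted P = 0.79).

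*Fbp1* encodes fructose-1,6-bisphosphatase, which removes a phosphate on the way from triose to hexose, and occupies 62864753 to 62888282 of chromosome 13 (minus strand). It measured 647, 600.3, 566, and 561 CPM in c-MafΔTAM mice 1 to 4, against 626, 661, 777, and 738 CPM in controls 1 to 4. Only c-MafΔTAM mouse 1 reached into the range of the controls. The log2 fold change was -0.24 (SE 0.0982, 95% confidence interval -0.45 to -0.02), with an unadjusted P of 0.0318 and an adjusted P of 0.298 in edgeR's quasi-likelihood test. It was -0.16 without the mice high in adipocyte markers (adjusted P = 0.6195) and -0.13 with quantile normalization and limma-trend (adjusted P = 0.457).

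*G6pc* encodes the catalytic subunit of glucose-6-phosphatase, which releases free glucose in the endoplasmic reticulum, and occupies 101367561 to 101377903 of chromosome 11 (plus strand). It measured 116, 222, 202, and 379 CPM in c-MafΔTAM mice 1 to 4, against 271, 327, 711, and 237 CPM in controls 1 to 4. Relative to its mean, the spread within each genotype was the widest of the 9 genes, with control mouse 3 and c-MafΔTAM mouse 4 highest in their groups. These are also the mice high in adipocyte markers. The log2 fold change was -0.75 (SE 0.485, 95% confidence interval -1.91 to 0.40, adjusted P = 0.562 in the quasi-likelihood test), the most negative of the 9 and the least precise. It was -0.27 without control mouse 3, -1.10 without c-MafΔTAM mouse 4, and -0.53 without c-MafΔTAM mouse 1. Without both mice high in adipocyte markers it was -0.63 (adjusted P = 0.324), and the 5 high-*Xist* mice gave -0.16 (adjusted P = 0.912).

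*Slc37a4* encodes the transporter that carries glucose-6-phosphate into the endoplasmic reticulum, where G6pc acts on it, and occupies 44396852 to 44402968 of chromosome 9 (plus strand). It measured 113, 146, 123, and 150.5 CPM in c-MafΔTAM mice 1 to 4, against 170.4, 183, 209.9, and 172 CPM in controls 1 to 4. The genotypes did not overlap. Controls averaged 184 ± 18.2 CPM and c-MafΔTAM mice 133 ± 17.8 CPM (SD, n = 4 in both), and the log2 fold change was -0.46 (SE 0.111, 95% confidence interval -0.71 to -0.22, adjusted P = 0.0562 in the quasi-likelihood test). It passed the threshold with DESeq2 (adjusted P = 0.00877) and, in the quasi-likelihood test, with *Xist* as a covariate (0.00965) or with every gene of at least 1 count kept (0.00728). With any 1 mouse left out, it stayed between -0.53 and -0.39 and past the threshold in 0 of 8 fits.

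**Figure D2:**
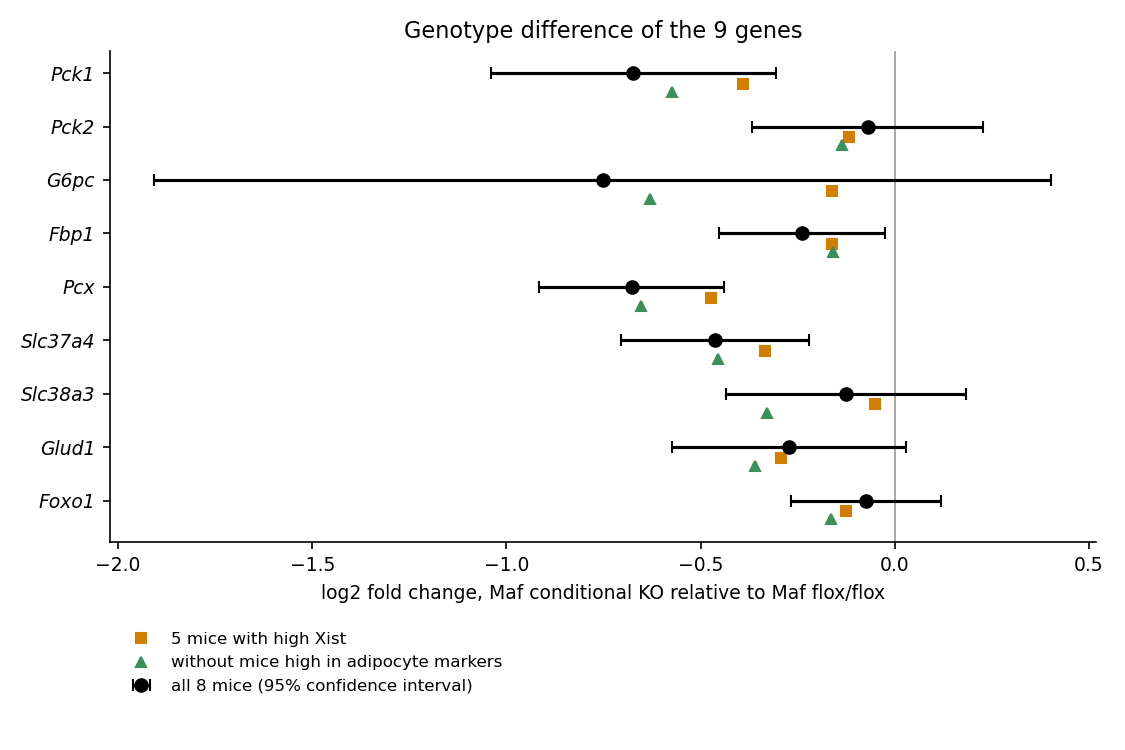
Log2 fold changes of the 9 genes, c-MafΔTAM relative to c-Maf fl/fl mice. Black points and bars are the estimates with 95% confidence intervals over all 8 mice, orange squares the estimates among the 5 mice with high *Xist*, and green triangles those without the 2 mice high in adipocyte markers. All symbols lie below 0, and the interval of *G6pc* is the widest.

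The 2 genes of glutamine use were not called. *Slc38a3* encodes the glutamine transporter SNAT3 of the basolateral membrane, known to rise in the proximal tubule in acidosis, and occupies 107650634 to 107669530 of chromosome 9 (minus strand). It measured 25.6, 30.9, 31.0, and 44.0 CPM in c-MafΔTAM mice 1 to 4, against 36.2, 36.9, 33.5, and 36.8 CPM in controls 1 to 4. The c-MafΔTAM mice spread to both sides of the controls, and the log2 fold change was -0.13 (SE 0.141, 95% confidence interval -0.43 to 0.18, adjusted P = 0.758 in the quasi-likelihood test). Its size rested on single mice, at -0.02 without c-MafΔTAM mouse 1 and -0.30 without c-MafΔTAM mouse 4. It was -0.33 without the 2 mice high in adipocyte markers (adjusted P = 0.249) and -0.05 in the 5 high-*Xist* mice (adjusted P = 0.931).

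*Glud1* encodes glutamate dehydrogenase, which frees ammonium from glutamate in mitochondria, and occupies 34310727 to 34345265 of chromosome 14 (plus strand). It measured 215, 329, 316, and 311 CPM in c-MafΔTAM mice 1 to 4, against 391, 389.6, 312, and 322 CPM in controls 1 to 4. c-MafΔTAM mouse 1 was lowest, and the controls fell into a higher pair with high *Xist* and a lower pair with low *Xist*. The log2 fold change was -0.27 (SE 0.138, 95% confidence interval -0.57 to 0.03, adjusted P = 0.415 in the quasi-likelihood test), and it was -0.15 without c-MafΔTAM mouse 1. With *Xist* as a covariate it was -0.37 and past the threshold (adjusted P = 0.00366), and the high-*Xist* mice alone gave -0.29 (adjusted P = 0.0571). Of the 36-base sequences in its transcripts, 9.15% also occur in other genes, mainly the pseudogene *Glud-ps*, so its counts are less certain than those of genes with no such copy.

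*Foxo1*, the transcription factor gene of the set, occupies 52268336 to 52353221 of chromosome 3 (plus strand), and 7.78% of its exonic bases, shared with *Gm20402*, did not yield counts. It measured 68.1, 67.6, 68.3, and 81.8 CPM in c-MafΔTAM mice 1 to 4, against 78.7, 79.5, 72.2, and 70.3 CPM in controls 1 to 4. The genotypes overlapped through c-MafΔTAM mouse 4, and the log2 fold change was -0.07 (SE 0.0883, 95% confidence interval -0.27 to 0.12, adjusted P = 0.777 in the quasi-likelihood test). It was -0.15 without c-MafΔTAM mouse 4, -0.05 without control mouse 2, and -0.16 without the 2 mice high in adipocyte markers (adjusted P = 0.52). Upper-quartile factors gave -0.03 and quantile normalization with limma-trend -0.02. Of 13 genes listed as FOXO1 targets, 0 were called in either direction by edgeR's quasi-likelihood test, beside 2.16% of all genes tested. At an unadjusted P under 0.05 there was 1 (*Sesn3*), beside 7.44% lower and 6.58% higher of all genes, so both counts say little about the targets. DESeq2 and edgeR's exact test called 0 of the 13, whose median log2 fold change was -0.02. *Sesn3* was called with *Xist* as a covariate and without control mouse 1, and *Irs2* in the 5 high-*Xist* mice.

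The start regions of *Pck1*, *Pcx*, and *Slc37a4* are shown because these are the 3 genes whose genotypes did not overlap. They are RefSeq windows of GRCm38.p6, from 250 bases before to 50 bases after a transcription start, all on the plus strand. The *Pck1* window is chr2:173152823-173153122, the *Pcx* windows of its 2 starts are chr19:4510222-4510521 and chr19:4594069-4594368, and the window of one *Slc37a4* start is chr9:44396696-44396995. Capitals mark TGCTGAC, a half-site of the Maf recognition element, and TGACG, a half-site of the cAMP response element, on either strand.
Pck1: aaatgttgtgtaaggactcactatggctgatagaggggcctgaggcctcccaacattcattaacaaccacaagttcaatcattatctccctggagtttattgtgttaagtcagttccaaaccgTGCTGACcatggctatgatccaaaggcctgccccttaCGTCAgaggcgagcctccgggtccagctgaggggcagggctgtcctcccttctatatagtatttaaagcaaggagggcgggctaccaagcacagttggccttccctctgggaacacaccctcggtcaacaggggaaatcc
Pcx, upstream start: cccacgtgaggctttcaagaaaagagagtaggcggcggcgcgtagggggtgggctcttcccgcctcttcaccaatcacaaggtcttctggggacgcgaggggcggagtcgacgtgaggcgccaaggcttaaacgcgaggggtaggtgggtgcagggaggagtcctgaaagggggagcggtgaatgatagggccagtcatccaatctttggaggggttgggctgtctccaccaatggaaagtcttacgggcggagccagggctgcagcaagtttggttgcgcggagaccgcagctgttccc
Pcx, downstream start: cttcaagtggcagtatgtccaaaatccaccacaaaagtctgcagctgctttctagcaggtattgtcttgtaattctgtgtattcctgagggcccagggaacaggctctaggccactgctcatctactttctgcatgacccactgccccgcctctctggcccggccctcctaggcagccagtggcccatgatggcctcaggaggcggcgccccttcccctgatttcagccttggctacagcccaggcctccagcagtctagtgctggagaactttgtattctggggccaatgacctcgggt
Slc37a4: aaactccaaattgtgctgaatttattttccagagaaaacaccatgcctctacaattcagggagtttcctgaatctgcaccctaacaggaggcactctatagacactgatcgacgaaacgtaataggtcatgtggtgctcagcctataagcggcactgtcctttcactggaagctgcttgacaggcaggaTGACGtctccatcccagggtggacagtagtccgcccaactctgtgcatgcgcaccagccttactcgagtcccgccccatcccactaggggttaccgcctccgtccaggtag

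In the *Pck1* window, TGCTGAC lay on the plus strand at bases -127 to -121 from the start and TGACG on the minus strand at bases -90 to -86. The *Slc37a4* window held TGACG at bases -61 to -57, and neither *Pcx* window held any of the motifs. RefSeq windows were found for 8 of the 9 genes, 11 windows in all, and *Slc38a3* had none. TGCTGAC was in 1 of these 11 windows and in 4.67% of 32851 windows of all genes. TGACG was in 3 of the 11, of which 2 are overlapping *Slc37a4* windows, and in 20.8% of all windows. The FOXO motif TGTTTAC was in 0 of the 11 and in 3.65% of all windows, and TATAAA was in 2 of the 11, at *G6pc* and another *Slc37a4* start, and in 13.6% of all windows. Both strands were searched, TGCTGAC followed by G overlaps TGACG, and a match is a run of letters and not a binding site.

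Per kilobase of exon, the scale on which genes can be compared, *Pck1* had the highest level, at a mean of 811 CPM per kb in controls and 509 in c-MafΔTAM mice. *Fbp1* followed at 412 and 349, and *G6pc* at 160.1 and 95.1 was next to *Pcx* at 153 and 95.4 CPM per kb. *Glud1*, at 84.0 and 69.6 CPM per kb, and *Slc37a4*, at 64.3 and 46.7, stood in the middle. *Foxo1*, *Slc38a3*, and *Pck2* were lowest, at 8.67, 6.80, and 2.72 CPM per kb in controls. In controls only *G6pc* and *Pcx* overlapped as neighbors in this order. In c-MafΔTAM mice, 5 neighboring pairs overlapped, which were *Pck1* with *Fbp1*, *Pcx* with *G6pc*, *G6pc* with *Glud1*, *Glud1* with *Slc37a4*, and *Foxo1* with *Slc38a3*. The length is that of all annotated exons of a gene joined, which for *Pck2*, at 7806 bases, lowers its level per kb more than for genes with one main transcript.

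**Figure D3:**
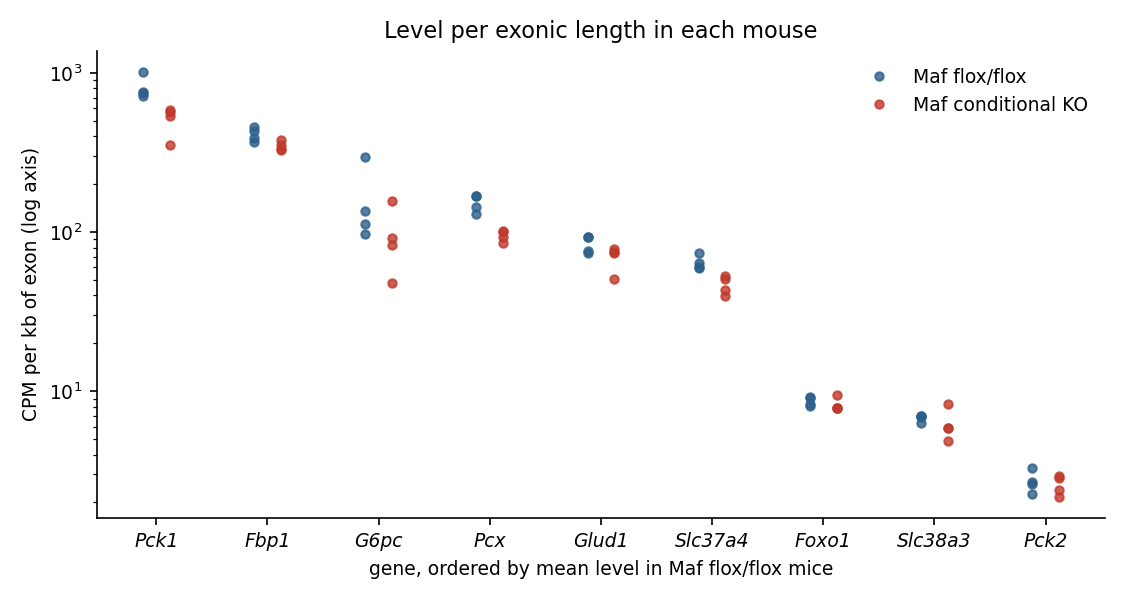
CPM per kb of exon on a log axis for each gene and mouse, with the genes ordered by their mean in controls (blue) beside c-MafΔTAM mice (red). *Pck1* is highest and *Pck2* lowest in both genotypes, and *G6pc* and *Pcx* overlap.

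Ratios within a mouse do not depend on library size. *Pck1* exceeded *Pck2* per length by 7.59 ± 0.24 on the log2 scale in c-MafΔTAM mice and by 8.21 ± 0.32 in controls (SD, n = 4 each), or 193-fold and 297-fold. The difference of -0.62 had a two-sided P of 0.0571 by exact permutation over all 70 assignments of the mice, and 0.229 after Benjamini-Hochberg adjustment over 4 ratios tested. In the 5 high-*Xist* mice it was smaller, at -0.28 (exact permutation P = 0.3, in a design of 3 mice against 2 that cannot reach 0.05). The ratio of *G6pc* to *Slc37a4* differed by -0.26 between genotypes and that of *Fbp1* to *G6pc* by 0.50 on the log2 scale, and neither size was stable. The first was -0.05 without c-MafΔTAM mouse 1 and turned positive without control mouse 3 (0.012) and in the 5 high-*Xist* mice (0.13). The second was 0.17 without c-MafΔTAM mouse 1, 0.21 without control mouse 3, 0.80 without c-MafΔTAM mouse 4, and 0.05 in the 5 high-*Xist* mice. With all 8 mice, their adjusted P values in the same exact permutation test were 0.543 and 0.495. The genotypes overlapped in these 3 ratios, and the smallest P that 4 mice against 4 allow is 0.0286.

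Some mice stood apart in several of the 9 genes. c-MafΔTAM mouse 1 was the lowest of its genotype in 7 of the 9 genes, c-MafΔTAM mouse 4 the highest in 5, and control mouse 3 the highest of its genotype in 4. c-MafΔTAM mouse 1 also had the highest mitochondrial share, 32.3%, and was the only c-MafΔTAM mouse with low *Xist*. Among the 3 mice with low *Xist*, it was below both controls in all 9 genes, but it is 1 mouse and no test was run. With mitochondrial and rRNA genes removed before scaling, all 9 genes kept their direction and side of the threshold, with *Pcx* at -0.68 (adjusted P = 0.00621 in the quasi-likelihood test) and *Pck1* at -0.67 (adjusted P = 0.0672). The part of sex was not tested beyond the *Xist* alternatives given here.

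In control mouse 3, the adipocyte markers *Cfd*, *Ucp1*, *Cidec*, *Plin1*, and *Adipoq* were at 83.7, 23.4, 16.1, 12.6, and 8.73 CPM. *Ucp1* is the uncoupling protein gene of brown fat. In c-MafΔTAM mouse 4, *Cfd* was at 16.1 and *Ucp1* at 4.33 CPM. *Lep* was at or near 0 in all 8 mice, with 2 counts at most. *Pck1* and *Pcx* are known to be expressed in adipose tissue as well as in kidney, and the part of adipose RNA in their values was not tested beyond leaving the 2 mice out. Without them, *Pck1* was at -0.57 (adjusted P = 0.219 in edgeR's quasi-likelihood test), beside -0.65 for *Pcx* and -0.46 for *Slc37a4*. In that fit 1.08% of all genes and 0 of the 9 were called.

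**Figure D4:**
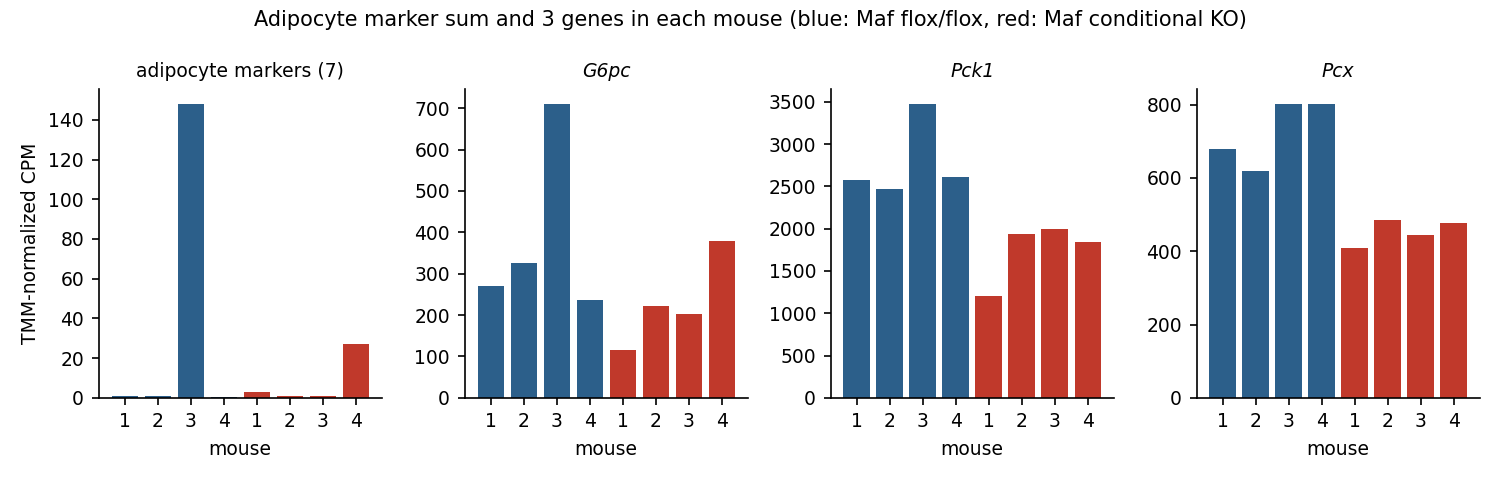
Summed CPM of 7 adipocyte markers and CPM of *G6pc*, *Pck1*, and *Pcx* in each mouse, with controls 1 to 4 in blue and c-MafΔTAM mice 1 to 4 in red. The marker sum is 148 CPM in control mouse 3 and 27.1 CPM in c-MafΔTAM mouse 4, and these mice are the highest of their genotype in *G6pc*. *Pck1* is highest in control mouse 3 and c-MafΔTAM mouse 3, and *Pcx* in control mouse 4 and c-MafΔTAM mouse 2.

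Some markers of the proximal tubule, the segment that holds these pathways, moved with genotype. The sum of 10 markers was 14423 to 18337 CPM in c-MafΔTAM mice and 18846 to 21830 CPM in controls, a log2 ratio of the means of -0.34. Of the 10, 3 were called lower, namely *Gatm* (log2 fold change -3.78), *Slc34a1* (-1.23), and *Slc13a1* (-0.83), and 0 were called higher. The sum of the other 7 overlapped, at 12494 to 16147 CPM in c-MafΔTAM mice and 14574 to 16755 CPM in controls. In whole kidney, fewer cells of a type and less RNA per cell cannot be told apart, and the part of cell content in the values of the 9 genes was not tested. Markers of the S3 segment, at 2523 to 2869 and 2284 to 3404 CPM, and of tubular injury, at 559.97 to 932 and 655 to 1214 CPM, overlapped between genotypes. Within the S3 list, *Slc7a13* was at 204, 264, and 324 CPM in c-MafΔTAM mouse 1 and controls 3 and 4, the mice with low *Xist*. It was at most 1.08 CPM in the other 5. *Cyp7b1*, at 97.8, 170, and 122.5 CPM against at most 2.55, went the same way, whereas *Napsa* overlapped between low-*Xist* and high-*Xist* mice. Markers of endothelium, at 348 to 355 and 370.2 to 423 CPM, and of macrophages, at 87.7 to 92.8 and 78.6 to 84.4 CPM, did not overlap between genotypes, and their part was not tested. Hepatocyte markers, of which *Fga* gave most, summed to 29.1 to 36.4 and 30.7 to 55.4 CPM.

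The rest of both pathways was described with 75 further genes in 4 lists, of which 73 were tested. Among them 9 were called lower and 0 higher, beside 1.58% and 0.586% of all genes tested, with a median log2 fold change of -0.08. At an unadjusted P under 0.05 there were 16 lower and 2 higher, beside 7.44% and 6.58% of all genes tested. DESeq2 called 11 lower and 1 higher, beside 2.81% and 1.58% of all genes, and the exact test also called 11 and 1, beside 2.10% and 1.25%. Without the 2 mice high in adipocyte markers 6 of the 73 were called lower and 0 higher, with 1.08% of all genes called in either direction.

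In the gluconeogenesis list, 2 of 24 genes were called lower. *Slc2a2*, the gene of the basolateral glucose exporter GLUT2, had a log2 fold change of -1.13 (SE 0.168, adjusted P = 0.0062 in the quasi-likelihood test). *Slc25a10*, the gene of the mitochondrial dicarboxylate carrier, was at 161 to 199 CPM in c-MafΔTAM mice and 234 to 256 CPM in controls, which did not overlap. Its log2 fold change was -0.50 (SE 0.0899, adjusted P = 0.0123), lost without c-MafΔTAM mouse 2 or mouse 3. The other 22 genes were not called, among them the enzyme gene *Gpi1* (-0.21, adjusted P = 0.246), and the list's median was -0.06.

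In the ammonia and glutamine list, 5 of 19 tested genes were called lower. *Slc4a4*, the gene of the basolateral sodium bicarbonate cotransporter, was at 689 to 812 CPM in c-MafΔTAM mice and 1414 to 1493 CPM in controls. Its log2 fold change was -0.99 (SE 0.089, adjusted P = 0.000113 in the quasi-likelihood test), past the threshold in 8 of 8 fits that left out 1 mouse. *Slc6a19*, the gene of the apical neutral amino acid transporter, was at 80.7 to 156 CPM in c-MafΔTAM mice and 249 to 333 CPM in controls (log2 fold change -1.23, adjusted P = 0.0158). *Slc7a8*, the gene of a basolateral amino acid exchanger, was at 55.4 to 126 and 211 to 286 CPM (-1.35, adjusted P = 0.0265). All 4 c-MafΔTAM mice were below all 4 controls in these 3 genes.

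*Gpt2*, the gene of mitochondrial alanine transaminase, measured 13.4, 21.6, 22.8, and 23.8 CPM in c-MafΔTAM mice 1 to 4, against 65.7, 68.1, 34.8, and 55.8 CPM in controls 1 to 4. The genotypes did not overlap, and its log2 fold change of -1.46 (SE 0.246, adjusted P = 0.0194 in the quasi-likelihood test) was the most negative of the 73 genes. *Slc25a22*, the gene of a mitochondrial glutamate carrier, was at 11.97 to 13.4 CPM in c-MafΔTAM mice and 16.7 to 21.2 CPM in controls, with a log2 fold change of -0.52 (SE 0.109, adjusted P = 0.029). With single mice left out, *Slc6a19* was past the threshold in 6 of 8 fits (not without c-MafΔTAM mouse 3 or control mouse 1). *Gpt2* was past it only without c-MafΔTAM mouse 1, c-MafΔTAM mouse 4, or control mouse 3, *Slc7a8* only without c-MafΔTAM mouse 1 or 2 or control mouse 3, and *Slc25a22* only without c-MafΔTAM mouse 1 or control mouse 2. Without both mice high in adipocyte markers, the calls of *Slc7a8* (-1.42, adjusted P = 0.119) and *Slc25a22* (-0.53, adjusted P = 0.131) were lost. With genes of at least 1 count kept, *Slc6a19*, *Gpt2*, and *Slc7a8* were no longer past the threshold (adjusted P = 0.0945, 0.0843, and 0.114), nor was *Slc7a8* with quantile normalization and limma-trend (0.0532).

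*Glul*, the gene of glutamine synthetase, measured 481, 965, 886, and 709 CPM in c-MafΔTAM mice 1 to 4, against 608, 742, 651, and 535 CPM in controls 1 to 4, with a log2 fold change of 0.26 (adjusted P = 0.611 in the quasi-likelihood test) that ran from 0.13 without c-MafΔTAM mouse 2 to 0.43 without c-MafΔTAM mouse 1. The genotypes overlapped, and the gene was not called. The oxoglutarate dehydrogenase-like gene *Ogdhl*, named after its values were seen, was the only gene of the list with higher values in all c-MafΔTAM mice, at 20.7 to 30.2 against 9.54 to 18.4 CPM (log2 fold change 0.97, adjusted P = 0.0547). It was called with DESeq2, the exact test, quantile normalization with limma-trend, *Xist* as a covariate, the 5 high-*Xist* mice, and without control mouse 2.

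In the list of regulators, 2 of 21 tested genes were called lower. *Ppara*, the nuclear receptor gene of the fasting response in fat oxidation, was at 53.8 to 73.0 CPM in c-MafΔTAM mice and 99.9 to 125 CPM in controls. Its log2 fold change was -0.83 (SE 0.107, adjusted P = 0.00147 in the quasi-likelihood test), past the threshold in 8 of 8 fits that left out 1 mouse. *Pth1r*, the parathyroid hormone receptor gene, was at 298 to 365 and 429 to 493 CPM, with a log2 fold change of -0.48 (SE 0.0934, adjusted P = 0.0194) that was lost without c-MafΔTAM mouse 2 or 4 or control mouse 3 or 4. The call was also lost without both mice high in adipocyte markers (-0.40, adjusted P = 0.138) and with quantile normalization and limma-trend (-0.36, adjusted P = 0.0532). The other 19 tested regulators were not called, among them *Hnf4a* (-0.20, adjusted P = 0.386) and the coactivator gene *Ppargc1a* (-0.09, adjusted P = 0.694). *Klf15*, a glucocorticoid-responsive factor gene of amino acid use, had a log2 fold change of -0.89 with an adjusted P of 0.0688, and was called with DESeq2, the exact test, *Xist* as a covariate, the 5 high-*Xist* mice, and without control mouse 4.

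**Figure D5:**
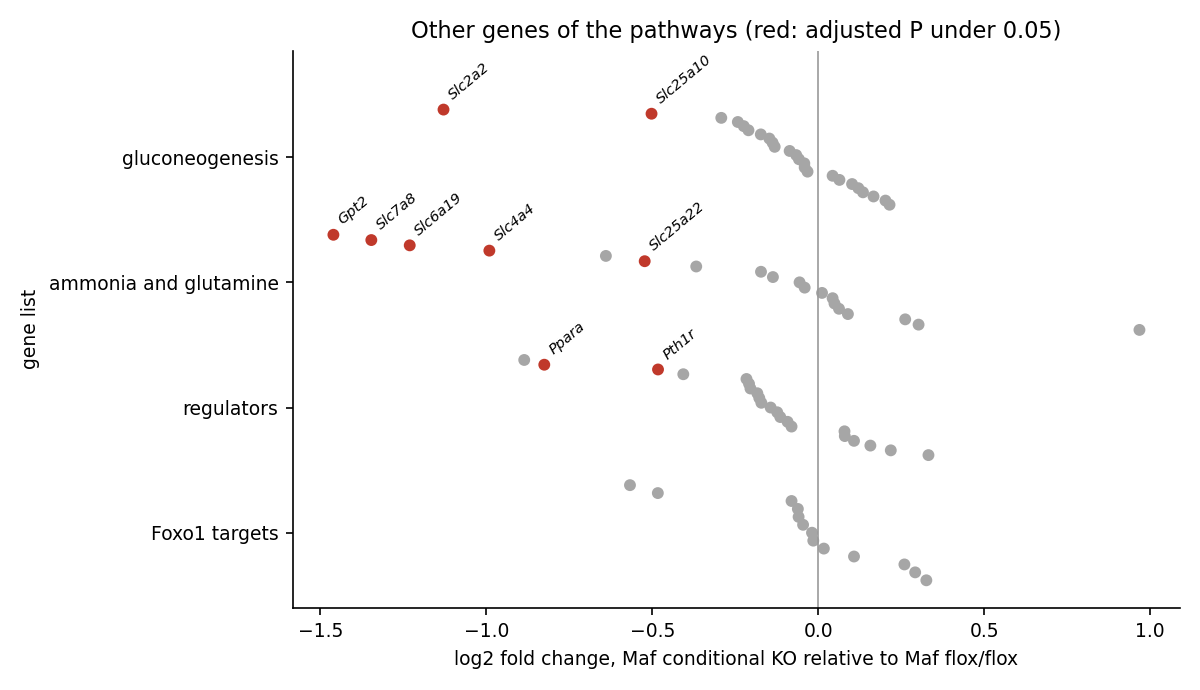
Log2 fold changes of the 73 tested genes of the 4 further lists, c-MafΔTAM relative to c-Maf fl/fl mice, with 1 point per gene and list. Red points with names are the 9 genes called by edgeR's quasi-likelihood test, all of them below 0, and gray points were not called.

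*Pcx*, as the gene of the set with the smallest P, was also compared in its pattern over the 8 mice with 9741 other tested genes of at least 10 CPM. Likeness was the root mean square difference of the log2 CPM centered per gene, where 0 is the same pattern. The nearest genes were *Ctnnbip1* at 0.06, *Add3* and *Creld1* at 0.09, *Bckdha*, a subunit gene of the branched-chain keto acid dehydrogenase, at 0.09, and *Pakap* at 0.09. All 5 were lower in c-MafΔTAM mice, with log2 fold changes from -0.75 to -0.59. The likeness includes the genotype difference, so their direction followed from how they were chosen. The points also share library, depth, and genotype.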

How the data were processed

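RNA-Seq of whole kidney was analyzed in 8 mice, 4 per genotype. The authors deposited raw counts, whole numbers of reads per gene name that featureCounts version 2.0.1 assigned to exons of Ensembl release 102 on GRCm38, per the file headers. The command counted both reads of a pair separately, ignored strand although the kit marks it, and dropped reads on exons of more than 1 gene. The file also lists exonic lengths. The submitters' processing notes name Subread 2.0.2, featureCounts, and edgeR 3.36.0, and the aligner of these counts is not given in the sources used here. The labels' extraction text names liver, whereas tissue and source are whole kidney. Libraries were depleted of rRNA, made from 50 ng of total RNA, and sequenced as 2 reads of 36 bases. The paper's own route to expression values (CLC Genomics Workbench, quantile values, an edgeR test) starts from reads and was not repeated.

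Genes passing filterByExpr (20149 of 55367) were scaled by TMM and tested with edgeR 4.0.16 (R 4.3.3) by the robust quasi-likelihood fit without covariates, with Benjamini-Hochberg adjustment over all genes tested. SE is the absolute log2 fold change over the square root of F. Ratios used a prior count of 2. The 9 genes, the lists, and the tests were chosen with earlier results of these data known. Genes were named by rule: the 9, *Maf*, called genes of the lists, *Slc2a2*, *Glul*, and the 5 nearest to the called gene of smallest P. Others were named after their values were seen, and some results are not reported here. Alternative settings were RLE or upper-quartile factors, DESeq2 1.42.0, edgeR's exact test, quantile normalization with limma-trend (limma 3.58.1), 2 other count filters, *Xist* as a covariate or high-*Xist* mice only, the replicate number as a block, removal of mitochondrial and rRNA genes, a prior count of 0.5, and each mouse left out. Leaving out mice with an adipocyte marker sum over 20 CPM was added after the data had been seen. The fit was tested on simulated counts. Replicates of a genotype differed beyond sampling noise, with chi-square per degree of freedom from 5.04 to 95.8, and every per-sample column was used.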

Additional observations from a re-analysis of the deposited data

Results flagged for a closer look

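Of 48 groups of 4 mice examined among the 9 genes, the 4 ratios tested, *Maf*, *Glul*, and the called list genes, 3 held a mouse whose gap to the nearest other exceeded Dixon's 95% limit. Chance flags about 1 in 20 groups, or 2.4 of 48. *Pck1* reached 3478 CPM in control mouse 3, with the other controls at 2472 to 2608 CPM. *Glud1* was 215 CPM in c-MafΔTAM mouse 1, with 311 to 329 CPM in the rest of its genotype. *Foxo1* was 81.8 CPM in c-MafΔTAM mouse 4, with 67.6 to 68.3 CPM in the rest. Without the mouse concerned, the log2 fold change of *Pck1* was -0.55, that of *Glud1* -0.15, and that of *Foxo1* -0.15.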

How the results depend on the processing

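Of 180 values of the 9 genes under 20 alternatives, 169 kept their direction and side of the threshold, 7 passed it, 2 no longer passed, and 2 changed sign. The number of the 9 called lower, 1 with all 8 mice, was 3 with DESeq2 (4.40% of all genes called), 3 with *Xist* as a covariate (7.03%), 2 with edgeR's exact test (3.36%), 2 with genes of at least 1 count (1.59%), 2 among the 5 mice with high *Xist* (3.75%), and 0 without the mice high in adipocyte markers (1.08%). Of the 73 other pathway genes, 9 in the test above, 14 were called with *Xist* as a covariate, 6 without the adipocyte-high mice, 6 with genes of at least 1 count, and 4 to 9 when single mice were dropped. All genes called numbered 436 in the test above, 886 with DESeq2, 676 with the exact test, 1416 with the covariate, 789 with high *Xist*, 219 without the adipocyte-high mice, and 239 to 452 with single mice left out (239 without c-MafΔTAM mouse 3, 256 without c-MafΔTAM mouse 2, 285 without control mouse 3). The sign of *Pck2* changed without c-MafΔTAM mouse 1 (0.01) or control mouse 1 (0.035), over a range of -0.15 to 0.035. That of the ratio of *G6pc* to *Slc37a4* changed with high *Xist* (0.13) and without control mouse 3 (0.012), the end of a range from -0.48. The cause was not tested for any of these.

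The genotypes share replicate numbers, but nothing in the labels pairs the mice, and same-numbered mice deviated together with correlations of -0.37, 0.15, -0.11, and -0.33, so the numbers were not taken as pairs. With the replicate number as a block, 129 of all genes (0.64%), 0 of the 9, and 3 of the 73 were called, and *Pcx* was at -0.67 (adjusted P = 0.0892, edgeR's quasi-likelihood test). Of the 4 numbers, 1 had its own number as best partner.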
